A study of Homo sapiens with 3 samples.

Results

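The genes described here are 10 immediate early genes, namely EGR1, EGR2, EGR3, IER2, IER3, IER5, NR4A1, NR4A2, NR4A3 and SRF, picked by name from the EGR, IER and NR4A families together with SRF. All 10 were found among the 60664 Ensembl gene identifiers of the count table. Of these, 8 were measured, meaning that they reached a CPM of 1 (counts relative to the scaled library total) in at least 1 library, as did 14792 genes of the table. EGR2 and EGR3 did not reach that level. The libraries came from wild-type Caco-2 cells, an established line from a human colon carcinoma that can form an epithelium like that of the intestine. The control cells were kept in a standard incubator. The DSS cells received 3% dextran sulfate sodium (DSS, a sulfated polysaccharide that provokes colitis in rodents) for 8 h, and the last group received 30 µM polydatin, a glucoside of resveratrol, for 2 h and then polydatin together with DSS for 8 h. None of the libraries had polydatin without DSS. A pretreatment step is recorded for the polydatin group alone, so its part cannot be told apart from that of the compound. There was 1 library per group, so differences between libraries have no replicate check and no test of the conditions exists. All intervals are 95% intervals for counting error only.

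Immediate early genes are transcribed within minutes of a stimulus without new protein synthesis, and most of their transcripts are short-lived. Serum response factor (SRF) binds the CArG box of the serum response element with ternary complex factors that the ERK kinases phosphorylate, and CREB binds the cyclic AMP response element (CRE). EGR proteins are zinc finger transcription factors, NR4A proteins are orphan nuclear receptors, and the IER genes encode small regulatory proteins. The cells of each group were sampled at a single time, so the course of these transcripts was not measured.

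Library totals ranged from 16667622 to 18825914 counts. Of 15 epithelial and intestinal genes, 12 or 13 reached 1 CPM in each library, with summed levels of 7490 to 9345 CPM, and CDX1 had no count in any library. KRT8 and KRT18 held most of that sum. The sucrase-isomaltase gene SI had 853, 172 and 149 counts in control, DSS and DSS with polydatin, and was at 0.198 times control in DSS (0.167 to 0.233). CDX2, the intestinal homeobox gene, was at 0.801 times control in DSS (0.757 to 0.848) and at 0.665 times DSS with polydatin (0.621 to 0.712). SI and CDX2 were the only 2 of the 13 measured epithelial genes below control in DSS. The other 11 lay above it, the highest at 2.45 times control with a counting interval that included 1, and the median log2 ratio of the 13 was 0.25. With polydatin against DSS, 4 lay above a ratio of 1, the highest at 2.66, and 9 below (median −0.27). Against control, ratios of the 13 with polydatin ran from 0.182 to 6.51. Summed levels in the same order were 68.2, 55 and 61.4 CPM for 7 fibroblast genes, 24.9, 17.4 and 13.5 CPM for 4 endothelial genes, and 3.53, 8.53 and 5.79 CPM for 7 immune genes. PTPRC and KDR, markers of leukocytes and endothelium, had no count in any library, while other genes of these lists were present and differed. COL1A1 had 720, 701 and 755 counts, PDGFRA 342, 186 and 164, PECAM1 443, 297 and 166, VWF 9, 22 and 68, and LYZ 14, 83 and 39. Ratios to control of the 5 measured fibroblast genes ran from 0.526 to 6.86 in DSS and from 0.499 to 9.37 with polydatin. Of these genes 4 reached 1 CPM in control. The summed level of 14 histone genes of the replication-dependent kind, with few poly(A) tails on their transcripts, was 81.6 CPM in control against 175.1 and 173.5 in the other libraries, and mitochondrially encoded transcripts held 5.31%, 4.77% and 4.34% of counts. The part of these differences in the results below was not tested. In bulk RNA, fewer cells carrying a transcript and less of it per cell cannot be told apart.

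The start regions of 4 genes are shown because they hold sequence matches to the CArG box or several matches to a half-site of the CRE. The windows are RefSeq promoter sequences on GRCh38.p14, from 250 bases before to 50 bases after an annotated start, printed 5′ to 3′ along the gene. Capitals mark matches to the CArG box or to the CRE half-site TGACG on either strand. EGR1 lies at chr5:138465229-138465528 on the plus strand, SRF at chr6:43171019-43171318 on the plus strand, EGR2 at chr10:62816317-62816616 on the minus strand and NR4A3 at chr9:99821635-99821934 on the plus strand.
EGR1: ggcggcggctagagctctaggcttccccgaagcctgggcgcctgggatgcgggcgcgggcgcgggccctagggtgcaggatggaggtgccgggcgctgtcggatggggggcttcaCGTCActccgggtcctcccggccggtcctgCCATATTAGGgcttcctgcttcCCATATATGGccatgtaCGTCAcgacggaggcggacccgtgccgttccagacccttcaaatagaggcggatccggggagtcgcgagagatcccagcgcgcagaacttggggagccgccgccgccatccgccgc
SRF: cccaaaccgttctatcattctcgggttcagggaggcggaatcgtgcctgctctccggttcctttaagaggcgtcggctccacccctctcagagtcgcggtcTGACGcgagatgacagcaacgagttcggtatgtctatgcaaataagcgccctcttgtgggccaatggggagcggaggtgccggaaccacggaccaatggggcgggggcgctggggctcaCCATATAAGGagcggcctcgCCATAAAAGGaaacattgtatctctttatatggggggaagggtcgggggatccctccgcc
EGR2: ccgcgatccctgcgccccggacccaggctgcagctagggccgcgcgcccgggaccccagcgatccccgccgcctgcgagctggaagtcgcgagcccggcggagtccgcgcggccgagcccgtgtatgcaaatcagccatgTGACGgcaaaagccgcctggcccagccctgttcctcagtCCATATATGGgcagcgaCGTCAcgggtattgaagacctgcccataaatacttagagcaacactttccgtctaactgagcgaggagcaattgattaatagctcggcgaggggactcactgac
NR4A3: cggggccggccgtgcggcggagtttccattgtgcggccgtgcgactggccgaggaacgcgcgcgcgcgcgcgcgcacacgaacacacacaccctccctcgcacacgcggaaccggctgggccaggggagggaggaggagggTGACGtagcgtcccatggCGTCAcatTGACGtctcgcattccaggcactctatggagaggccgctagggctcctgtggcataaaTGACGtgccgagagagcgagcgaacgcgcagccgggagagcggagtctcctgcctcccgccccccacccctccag

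The EGR1 window held 2 CArG boxes, starting 105 and 83 bases before the start site, and 2 CRE half-sites. The SRF window held 2 CArG boxes, starting 30 and 10 bases before the start, and the EGR2 window held 1, starting 71 bases before. The NR4A3 window had no CArG box and 4 CRE half-sites. Of 34796 distinct promoter windows of this length, 1.3% held a CArG box and 24.5% a CRE half-site. The search covered 11 windows for 7 of the genes, since EGR2 has 3 annotated starts and NR4A1 and SRF have several. IER2 had 1 CRE half-site, and neither motif matched in the windows of IER5 and NR4A1 or at the other starts of EGR2 and SRF. The EGR recognition motif GCGNGGGCG, found in 9.43% of all windows, matched once in the EGR1 window, once in the SRF window at 49 bases before the start, and once in a second EGR2 window. The full CRE (TGACGTCA, 1.84% of windows, which would contain a half-site on each strand), the AP-1 motif TGACTCA (4.96%) and the NR4A monomer motif AAAGGTCA (1.21%) matched in none of the 11 windows. The TATA motif TATAAA (11.6%) matched in the SRF window alone, on the opposite strand and from base 15 after the start. Only exact matches were sought, so near variants of the motif are not counted. No window is shown for EGR3, which was left out of the search, or for IER3 and NR4A2. A match describes the letters of the sequence and is no evidence of binding in these cells.

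**Figure D1:**
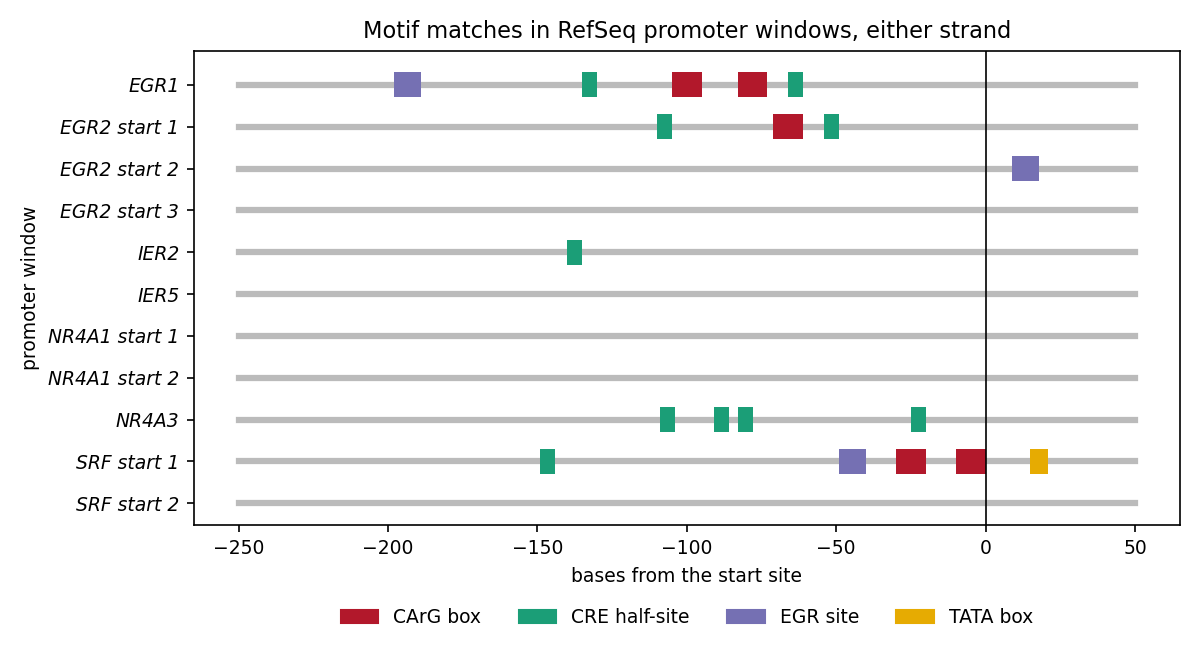
Motif matches on either strand in the 11 RefSeq promoter windows, by distance in bases from the annotated start (starts of a gene are numbered by genome coordinate, grey lines are the windows and coloured boxes the matches). CArG boxes lie in the windows of EGR1, SRF and the first EGR2 start, and CRE half-sites repeat 4 times in that of NR4A3.

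EGR1 encodes the best known EGR factor, a target of ERK, SRF and ternary complex factors. It lies on chromosome 5 at 138465490 to 138469315 (GRCh38, plus strand) and overlaps no other annotated gene. Its counts were 1256 (control), 501 (DSS) and 809 (DSS with polydatin), which are levels of 69.2, 27.0 and 46.4 CPM. The control library was the highest and the DSS library the lowest, with the polydatin library between, and the counting intervals of the 3 levels did not overlap. EGR1 in DSS was at 0.391 times its control level (0.352 to 0.434), and 0.798% of measured genes had a lower ratio. With polydatin it was 1.72-fold higher than in DSS (1.53 to 1.92). It was at 0.671 times control (0.613 to 0.733) there, just short of the 1.5-fold rule used below.

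EGR2 and EGR3 encode paralogous factors that were close to the limit of detection. EGR2 (chromosome 10, 62811996 to 62919900) had 6, 6 and 5 counts in the libraries in the same order. EGR3 (chromosome 8, 22687659 to 22693302) had 3, 10 and 10 counts, where 3 counts correspond to 0.162 to 0.172 CPM. The EGR3 ratio of DSS to control was 3.27 with an interval from 0.841 to 18.5, and that of EGR2 was 0.98 with an interval from 0.262 to 3.67. No difference in either gene was detectable at this depth. EGR1 made up 99.3% of the summed counts of these EGR genes in control (98.7 to 99.7%, exact binomial interval), 96.9% in DSS (95.02 to 98.2%) and 98.2% in DSS with polydatin (97.0 to 99.0%). The summed EGR level was therefore that of EGR1 in each library, at 69.7, 27.9 and 47.3 CPM.

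IER3, also known as IEX-1, encodes a regulator of apoptosis and ERK signalling and is a known target of NF-κB and p53. It lies on chromosome 6 at 30743199 to 30744554 (minus strand). The libraries held 248, 699 and 987 counts of it, or 13.7, 37.7 and 56.6 CPM. The level was lowest in control and highest with polydatin, with no overlap of the counting intervals, and its order across the libraries differed from that of EGR1. IER3 was 2.76-fold higher in DSS than in control (2.39 to 3.21), 1.5-fold higher with polydatin than in DSS (1.36 to 1.66) and 4.14-fold higher with polydatin than in control (3.60 to 4.78). The middle ratio lay on the 1.5-fold rule and missed it under 3 other ways of computing it. The antisense gene IER3-AS1 overlaps its end, with 16, 15 and 22 counts.

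IER2 encodes a nuclear regulator of transcription, and IER5 a related protein that recruits the phosphatase PP2A to the heat shock factor HSF1. IER2 (chromosome 19, 13150415 to 13154908) had 526 counts in control, 547 in DSS and 508 with polydatin, or 28.97, 29.5 and 29.1 CPM. Its ratio was 1.02 for DSS against control (0.903 to 1.15) and 0.987 for DSS with polydatin against DSS (0.873 to 1.12), and both intervals included 1. After removal of a trend on GC content and length its log2 ratio for DSS with polydatin against control went from 0.01 to −0.34 (−0.52 to −0.17). A gene annotated on the opposite strand, AC011446.2, overlaps IER2 and had 15, 28 and 29 counts. IER5 (chromosome 1, 181088712 to 181092899), annotated with a single exon, had 501, 513 and 622 counts, or 27.6, 27.7 and 35.7 CPM. Control and DSS were level at a ratio of 1.00 (0.886 to 1.14), and the polydatin library was at 1.29 times DSS (1.14 to 1.45), below the 1.5-fold rule. IER3 thus grew from 19.5% of the summed IER counts in control (17.3 to 21.7%) to 39.7% in DSS (37.4 to 42.1%) and 46.6% with polydatin (44.5 to 48.8%), while IER2 went from 41.3% to 31.1% and 24.0%.

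NR4A1, also known as NUR77, encodes an orphan nuclear receptor induced by calcium, cyclic AMP and growth factor signals. It lies on chromosome 12 at 52022832 to 52059507 (plus strand). Its 219, 330 and 602 counts were 12.1, 17.8 and 34.5 CPM. Control was the lowest and the polydatin library the highest, and the counting intervals were separate. The ratio of DSS to control was 1.48 (1.24 to 1.76), just under the 1.5-fold rule. With polydatin NR4A1 was 1.94-fold higher than in DSS (1.69 to 2.22), a ratio above those of 97.5% of measured genes, and 2.86-fold higher than in control (2.45 to 3.36).

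NR4A2 (NURR1) and NR4A3 (NOR1) encode the other receptors of the subfamily and were much scarcer. NR4A2 (chromosome 2, 156324432 to 156342348) had 27, 33 and 53 counts, or 1.49, 1.78 and 3.04 CPM. It was 1.71-fold higher with polydatin than in DSS (1.09 to 2.72) and 2.04-fold higher than in control (1.26 to 3.38), and its ratio of 1.198 for DSS against control had an interval from 0.699 to 2.07. NR4A3 (chromosome 9, 99821855 to 99866891) had 7, 11 and 22 counts, or 0.386, 0.594 and 1.26 CPM, and counted as measured only through the polydatin library. Its ratio of 2.13 for DSS with polydatin against DSS had an interval that reached 1 (0.988 to 4.85), and against control it was 3.27-fold higher (1.35 to 9.07). All NR4A members had their lowest count in control and their highest with polydatin. The split among them stayed within counting error, with NR4A1 at 86.6% of the family's counts in control (81.7 to 90.5%), 88.2% in DSS (84.5 to 91.3%) and 88.9% with polydatin (86.3 to 91.2%). The summed NR4A level was 13.9, 20.2 and 38.8 CPM.

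SRF encodes the factor that binds the CArG boxes shown above. It lies on chromosome 6 at 43171299 to 43181507 (plus strand). SRF had 925, 1030 and 866 counts, or 50.9, 55.6 and 49.7 CPM, and the levels of the 3 libraries lay close together. It was at 1.09 times control in DSS (0.998 to 1.19) and at 0.893 times DSS with polydatin (0.815 to 0.979). With the trend on GC content and length removed, the SRF log2 ratio for DSS against control went from 0.13 to −0.09, and that for DSS with polydatin against control from −0.04 to −0.40 (−0.54 to −0.27), which is not called. SRF and EGR1 have the same number of CArG boxes in the windows printed above, and their ratios of DSS to control were 1.09 and 0.391. Sequence outside those windows was not searched, so the full number of CArG boxes near either gene is not known here. Whether CArG boxes bear on these ratios was not tested.

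**Figure D2:**
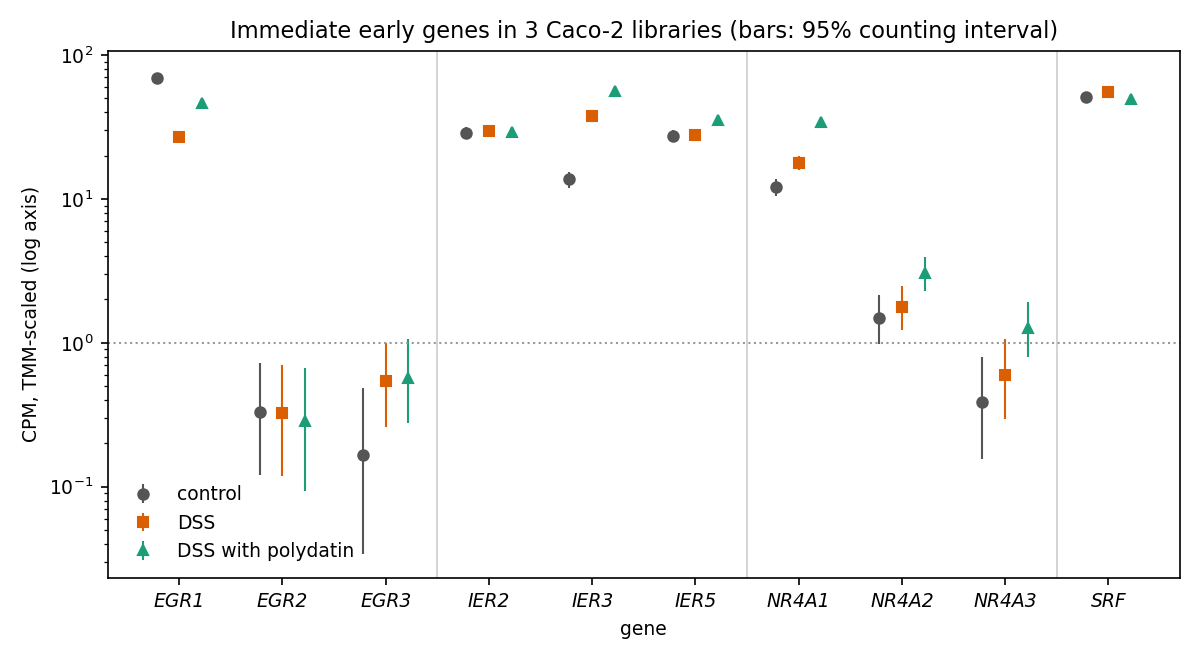
CPM of each gene (log axis) in the control, DSS and DSS with polydatin libraries, with 95% exact Poisson intervals that cover counting error only; the dotted line is 1 CPM. EGR1 is highest in control at 69.2 CPM, IER3 and the NR4A genes are highest with polydatin, and IER2 and SRF vary least.

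A gene was called higher or lower where its ratio reached 1.5-fold either way with an interval excluding 1. NR4A3 reached 1 CPM only in the library where it was highest, so it is left out of the counts that follow, which are over the 7 genes at 1 CPM or more in every library. For DSS against control, IER3 was called higher and EGR1 lower, and the other 5 were called neither way. Over all measured genes 9.45% were called higher and 5.81% lower in that comparison (8.38% and 5.33% of the 13349 genes at 1 CPM in every library), so 1 gene in each direction among 7 is close to the background. The median log2 ratio of the 7 was 0.13, against −0.01 for those 13349 genes. For DSS with polydatin against DSS, EGR1, IER3, NR4A1 and NR4A2 were called higher and none lower, against a background of 5.39% higher and 2.6% lower (4.14% and 2.53% of genes at 1 CPM in every library). The median log2 ratio of the 7 was 0.59, against −0.03 for those genes, and SRF and IER2 had the lowest ratios. For DSS with polydatin against control, IER3, NR4A1 and NR4A2 were called higher and none lower, where the background was 16% higher and 12.4% lower (14.3% and 12.6% of genes at 1 CPM in every library). The median log2 ratio of the 7 was 0.37 there, against −0.04. These comparisons share libraries, so their values are set side by side and are not independent of each other.

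**Figure D3:**
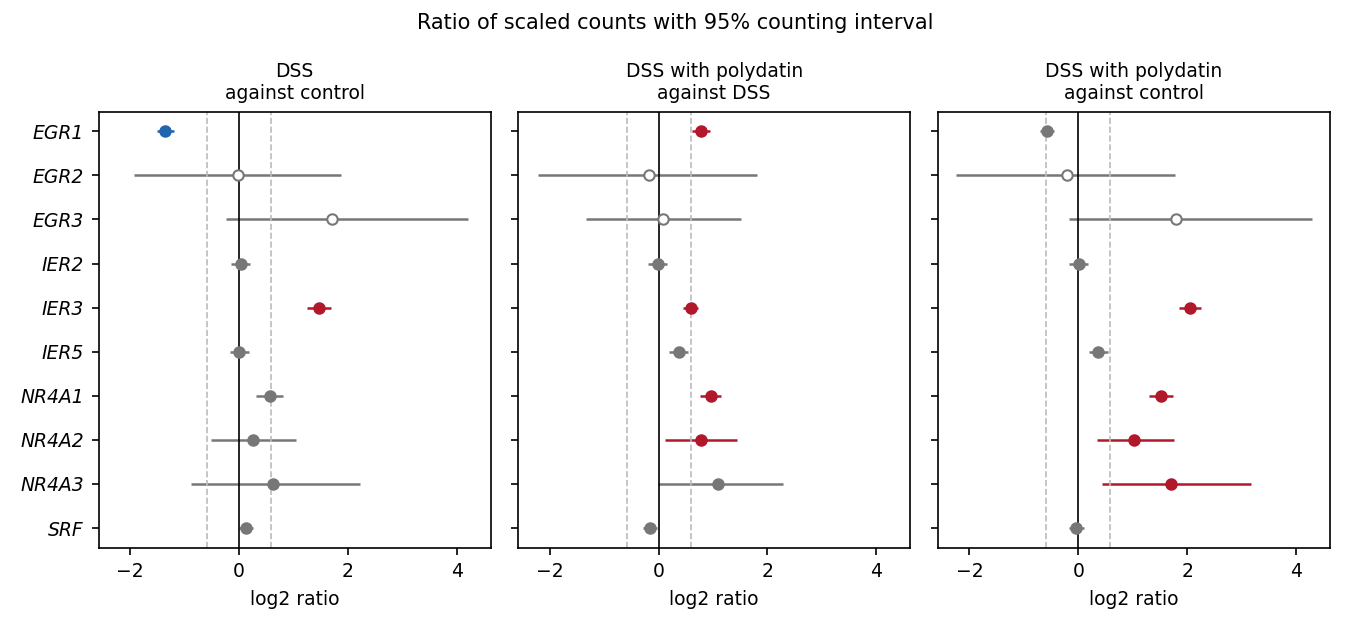
Log2 ratio of scaled counts with its 95% counting interval for each gene in 3 comparisons (red called higher, blue called lower, grey neither, open circles not measured, dashed lines 1.5-fold). EGR1 is the only gene of the 10 called lower, in DSS against control, and lies to the right of 0 for DSS with polydatin against DSS at a ratio of 1.72.

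Levels of different genes were compared as CPM per kilobase of annotated exon. In control the order was EGR1 at 22.04 CPM per kilobase, SRF at 12.1, IER3 at 10.1, IER2 at 9.43, IER5 at 6.59 and NR4A1 at 1.65, with NR4A2 at 0.375 and the others under 0.09. By counting error IER3 and IER2 could not be told apart in control. In DSS IER3 led at 27.8 CPM per kilobase, followed by SRF at 13.2, IER2 at 9.61 and EGR1 at 8.62, and the last pair were not separated by counting error (ratio 1.12, 0.986 to 1.26). With polydatin IER3 was first at 41.7, 2.82 times EGR1 at 14.8 (2.57 to 3.10), and SRF followed at 11.8. EGR2, EGR3 and NR4A3 were not separated from their neighbours among themselves in any library. Exon lengths include all annotated isoforms, which for NR4A1 sum to 7.29 kilobases, and a longer length gives a lower value.

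Genes for the kinases and cofactors that act on this gene class had no calls in DSS against control or in DSS with polydatin against DSS, with more ratios above 1 than below in the former. Backgrounds of 9.45% higher and 5.81% lower, then 5.39% and 2.6%, would put few calls in each list, so the absence of calls is not read as a result about these genes. None of 11 measured ERK cascade kinase genes was called in those comparisons, with median log2 ratios of 0.22 and 0.07, and 9 of them lay above a ratio of 1 in DSS against control, up to RPS6KA1 at 1.47 (1.32 to 1.64) and MAP2K2 at 1.43 (1.33 to 1.54). None of 5 measured SRF cofactor genes was called in those comparisons (medians 0.06 and 0.02), and none of 8 CREB family and coactivator genes (medians 0.29 and 0.00). Against control, 4 genes of these lists were called higher with polydatin and none lower, where the background was 16% and 12.4%, so the number called higher is close to the background. They were MAP2K2, which encodes MEK2, at 1.68 times (1.56 to 1.81), the ribosomal S6 kinase gene RPS6KA1 at 1.54 times (1.38 to 1.72), the actin-sensing SRF cofactor gene MRTFA at 1.59 times (1.36 to 1.85) and the CREB coactivator gene CRTC2 at 1.65 times (1.44 to 1.90). These values are transcript levels and say nothing of phosphorylation, through which ERK, ternary complex factors and CREB are known to act.

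Of 37 other measured immediate early genes, 18 were called higher and none lower in DSS against control, where 9.45% of all measured genes were called higher and 5.81% lower. Their median log2 ratio was 0.59, against −0.01 for all measured genes. The list counts here and below, like these backgrounds, cover genes at 1 CPM in at least 1 library. That filter favours higher calls for genes under 1 CPM in control, such as FOSB (0.716 CPM). Among the 45 measured immediate early genes, these 8 included, EGR1 had the lowest ratio, and the next was DUSP2 at 0.697 (0.445 to 1.08). IER3 stood ninth from the top at 2.76-fold, below DUSP5 and DUSP4, which encode phosphatases of MAP kinases, the AP-1 gene FOSB (4.00-fold, 2.15 to 7.99) and KLF6. FOS, the AP-1 gene often read together with EGR1, was at 0.941 times control (0.758 to 1.17). For DSS with polydatin against DSS, 13 of the 37 were called higher and 2 lower, with a median of 0.41 and a background of 5.39% and 2.6%. Those lower were MYC and the ERK phosphatase gene DUSP6, the latter at 0.621 times DSS (0.566 to 0.680). NR4A3, measured only through the polydatin library, had the highest ratio of the 8 at 2.13 (0.988 to 4.85). NR4A1 stood sixth from the top at 1.94-fold, just below the bZIP factor genes ATF3 and MAFF (2.07-fold, 1.80 to 2.38, for MAFF). EGR1 stood eighth at 1.72-fold, between DUSP1 and NR4A2. The activity-regulated gene ARC had 2, 7 and 18 counts and was measured only through the polydatin library, at 2.73 times DSS (1.09 to 7.74). FOS was at 1.06 times DSS. For DSS with polydatin against control, 27 of the 37 were called higher and 1 lower, DUSP2 (0.461, 0.269 to 0.766), with a median of 0.91 and a background of 16% and 12.4%. DUSP5 was 13.4-fold (11.3 to 16.1), DUSP4 9.15-fold (6.53 to 13.2), FOSB 6.57-fold (3.64 to 12.9) and MAFF 6.40-fold (5.15 to 8.03) higher there. The lists were chosen with results of these libraries known and are no independent evidence of direction.

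Of the 14 EGR corepressor and EGR1 target genes reported here, 4 were called higher in DSS against control (median 0.17, background 9.45%), 3 with polydatin against DSS (median 0.26, background 5.39%) and 9 with polydatin against control (median 0.76, background 16%), and none was called lower in any of the 3. The stress-induced cytokine gene GDF15 had 163, 1047 and 1938 counts. It was 6.30-fold higher in DSS than in control (5.33 to 7.47), a further 1.97-fold higher with polydatin (1.82 to 2.12), and 12.4-fold higher than in control there (10.6 to 14.6). The fibronectin gene FN1 was 2.29-fold higher in DSS than in control (2.22 to 2.36) and 2.76-fold with polydatin (2.68 to 2.85). The tissue factor gene F3 was 1.61-fold higher with polydatin than in DSS (1.41 to 1.83) and the prostaglandin E synthase gene PTGES 1.70-fold (1.29 to 2.25). The urokinase gene PLAU was 4.46-fold higher in DSS than in control (2.97 to 6.92) and TGFB1 1.95-fold (1.71 to 2.21), where EGR1 was at 0.391 times. With polydatin PLAU was at 4.38 times (2.90 to 6.82) and TGFB1 at 2.33 times control (2.05 to 2.64), and the heparanase gene HPSE at 1.87 times (1.34 to 2.66). The corepressor genes NAB1 and NAB2 were at 0.874 and 0.969 times control in DSS.

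Of 15 measured actin cytoskeleton genes driven by SRF, 3 were called higher in DSS against control (median 0.25, background 9.45%), 1 with polydatin against DSS (median 0.19, background 5.39%) and 5 with polydatin against control (median 0.42, background 16%), and none was called lower. The 1 of 15 is close to its background. The focal adhesion gene ZYX was 1.87-fold higher in DSS than in control (1.71 to 2.04) and TGFB1I1, which encodes HIC-5, 2.39-fold higher (1.71 to 3.39) and a further 1.56-fold higher with polydatin than in DSS (1.23 to 1.98). The calponin gene CNN1 had 4, 14 and 21 counts, with a ratio of 3.43 for DSS against control (1.08 to 14.3), and was measured only through the polydatin library. With polydatin against control, the actin-binding genes FLNA and TAGLN were 1.92-fold (1.87 to 1.97) and 1.72-fold higher (1.62 to 1.84). None of 3 measured NR4A partner genes was called in any of the 3 comparisons. The backgrounds were 9.45%, 5.39% and 16% higher and 5.81%, 2.6% and 12.4% lower, so 3 genes would give few calls. Among 19 genes for HSF1, its targets and PP2A subunits, 4 were called higher and none lower in DSS against control (background 9.45% and 5.81%), and 4 higher and 1 lower with polydatin against control (background 16% and 12.4%), the latter PPP2R5D at 0.651 times (0.606 to 0.698). In DSS against control the heat shock gene HSPA1A was 1.93-fold higher (1.77 to 2.10) and its near-identical copy HSPA1B 1.99-fold (1.76 to 2.25). The split of reads between these copies is uncertain. The PP2A subunit gene PPP2R5B was 1.99-fold higher in DSS than in control (1.47 to 2.71). It was the only gene of the 19 called with polydatin against DSS, at 1.77-fold (1.42 to 2.20), and 1 of 19 is close to the 5.39% background. The PP2A subunit gene PPP2R2C, with 14, 30 and 45 counts, was 2.10-fold higher in DSS than in control (1.08 to 4.29). At 0.771 CPM in control, it was measured only through the other libraries.

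**Figure D4:**
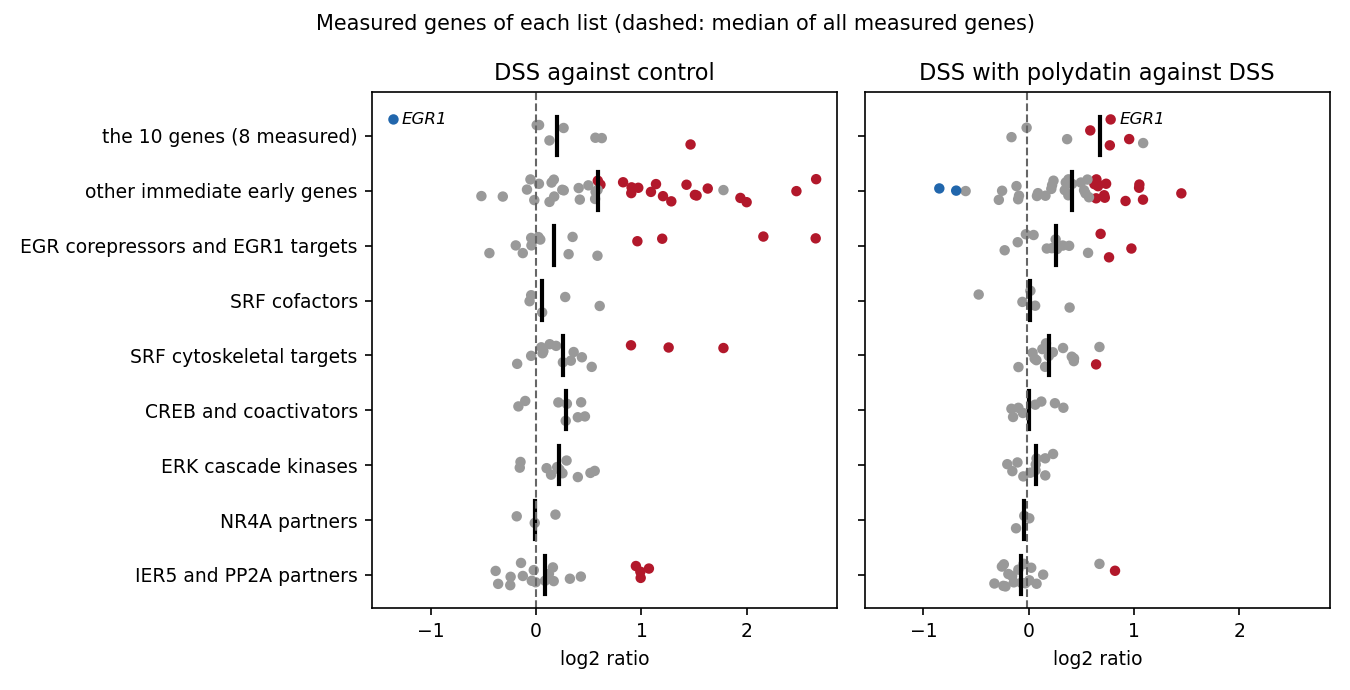
Log2 ratio of every measured gene of each list in DSS against control and DSS with polydatin against DSS (points red called higher, blue called lower, grey neither; black bars are list medians, dashed lines the median of all measured genes). EGR1 lies left of all 37 other immediate early genes in the first panel, whose median is 0.59. The ERK kinase and CREB lists have medians of 0.22 and 0.29 there with no gene called. The background there was 9.45% of measured genes called higher and 5.81% lower, which would give few calls in lists of this size.

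The nearest genes in pattern were sought among 10611 protein-coding genes at 5 CPM or more in at least 1 library and with a count in every library. The measure was the Euclidean distance of log2 CPM centred over the 3 libraries. With 3 libraries a pattern has few degrees of freedom, so nearness describes the levels only. EGR1 was nearest to the calcium-binding protein gene S100P (9.80, 3.89 and 6.82 CPM, distance 0.04), to SLC7A11, the cystine importer gene named in the title of the series (227.3, 83.5 and 145.3 CPM, distance 0.07), and to DDIT4, an inhibitor of mTOR signalling (54.5, 21.4 and 32.9 CPM, distance 0.13). Each was highest in control and lowest in DSS, and only 10 genes lay within a distance of 0.25 of EGR1. IER3 was nearest to the autophagy receptor gene SQSTM1 (162.7, 441.6 and 703.6 CPM), to MISP3 and to JUN (15.0, 42.6 and 66.5 CPM), at distances of 0.06 to 0.07. NR4A1 was nearest to CLIP4, KIFC2 and BEST1 at distances of 0.03 to 0.05, with 62 genes within 0.25. MISP3 and CLIP4 reached 5 CPM only in the polydatin library. The flat genes had many neighbours, with 4578 genes within 0.25 of IER2 and 4192 within 0.25 of SRF, against 1791 for IER5.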

How the data were processed

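Per the labels' protocols, RNA came from a Trizol extraction and libraries from a VAHTS Universal V6 kit. The authors deposited 1 table of raw read counts per Ensembl gene for the 3 libraries, from reads aligned with HISAT2 to GRCh38 per the submitters' processing notes. Not given in the sources used here are the counting program, annotation release and strand setting. Symbols matched 60463 of 60664 identifiers, and gene positions and exon lengths came from GENCODE 29 on GRCh38.

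Counts were scaled by TMM (edgeR 4.0.16, R 4.3.3) with factors of 0.971 for control, 0.984 for DSS, 1.05 for DSS with polydatin. Genes at 1 CPM or more in at least 1 library were measured, 1 CPM being 18.2, 18.5 and 17.4 counts. Ratios have exact 95% Clopper-Pearson intervals (scipy 1.17.1) and levels exact Poisson intervals. The reads carry no molecular identifiers and are not independent molecules, so intervals and the 3-count floor cover counting error only. No test was run, since there is 1 library per group. The ratio step was run on simulated Poisson counts, which checks the computation only and not the spread between libraries. Alternatives used total counts, DESeq2 1.42.0 size factors, other filters, a 2-fold rule, thinning, 2 added counts, removal of a GC content and length trend (statsmodels 0.14.6) and, chosen after seeing the data, a CPM of at least 1 in every library. Figures used matplotlib 3.10.9.

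The genes and the lists were chosen with earlier results of these data known. Named list genes came from those called, at most 5 for each list and comparison in order of the interval bound farthest from 1, and the 3 nearest genes in pattern are named. FOS, DUSP2, DUSP6, MYC, NAB1, NAB2 and the marker genes were named after their values were seen. Groups of cells given erastin or Fer-1 in the series' design text were not analysed here. A further gene of the EGR1 target list is not reported here. It was left out of that list's counts and medians after its values were seen, for a reason other than those values, so the list is incomplete.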

Additional observations from a re-analysis of the deposited data

How the results depend on the processing

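No paired analysis was possible because each group has 1 library, and for the same reason no library could be left out. No ratio called for one of the 10 genes changed direction under any of the alternatives. The EGR1 log2 ratio for DSS against control was −1.36 and it was called lower under each of them. Calls near the 1.5-fold rule moved. IER3 for DSS with polydatin against DSS (log2 0.59) fell short with DESeq2 size factors (0.58), with 2 counts added (0.58) and after removal of the trend on GC content and length (0.55). NR4A3 in that comparison was called with total-count scaling (1.18) and with the trend removed (1.11), and NR4A2 was not called after thinning (0.60). EGR1 for DSS with polydatin against control was called lower with DESeq2 size factors (−0.61) and with the trend removed (−0.70), which takes the genes called lower there from 0 to 1 under each. With a 2-fold rule the genes called higher for DSS with polydatin against DSS went from 4 to 0, and with a CPM of at least 10 those called higher against control went from 4 to 2, since NR4A2 and NR4A3 were then not measured. A CPM of at least 1 in every library, chosen after seeing the data, gave 3 there without NR4A3. Removing the trend moved the SRF log2 ratio from 0.13 to −0.09 for DSS against control and that of IER2 from 0.03 to −0.18, and for DSS with polydatin against DSS that of SRF from −0.16 to −0.31. For DSS with polydatin against control it moved SRF from −0.04 to −0.40, IER2 from 0.01 to −0.34 and NR4A1 from 1.52 to 1.18. Of these NR4A1 was called, under both. Over all measured genes, 1398 were called higher and 859 lower for DSS against control, 797 and 384 for DSS with polydatin against DSS, and 2367 and 1829 for DSS with polydatin against control. A CPM of at least 10 gave 749 and 438, then 237 and 234, then 1269 higher. The 2-fold rule gave 627 and 261, 287 and 68, and 1262 and 483. Total-count scaling gave 234 lower for DSS with polydatin against DSS. Beyond fewer genes tested or a stricter rule, the cause was not tested.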

Other observations

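Relatives of the EGR and IER5 genes also differed between the libraries. WT1, which encodes a zinc finger factor whose DNA-binding fingers resemble those of EGR1, had 108, 55 and 47 counts in control, DSS and DSS with polydatin. It was at 0.499 times control in DSS (0.354 to 0.697). The ratio was 0.908 for DSS with polydatin against DSS, where that of EGR1 was 1.72. IER5L, the paralogue of IER5, had 55, 103 and 80 counts and was 1.84-fold higher in DSS than in control (1.31 to 2.60), where IER5 had a ratio of 1.00. EGR4 had 3, 2 and 2 counts. These relatives were listed with results of the libraries known.

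IER5 is annotated with a single exon. The 201 measured protein-coding genes of that kind had a median log2 ratio of 0.03 for DSS against control and −0.08 for DSS with polydatin against DSS, and 12.9% and 5.97% of them were called higher. The other 12078 measured protein-coding genes had medians of −0.00 and −0.03, with 9.33% and 4.75% called higher. Those called lower were 1.99% and 2.49% of the single-exon genes and 5.37% and 2.34% of the others. Of 9 measured histone genes of the replication-dependent kind, 8 were called higher in DSS against control. How many of them are in the single-exon class was not counted.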
